A study of Mus musculus with 87 samples.

Results

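The cytosolic ribosomal protein genes were followed across 64 RNA-seq libraries of mouse embryos in which topologically associating domain (TAD) boundaries had been deleted. Members were the protein-coding genes whose symbol begins with Rpl or Rps and a digit, together with Rplp0, Rplp1, Rplp2 and Rpsa. The kinase genes with Rps6k names, pseudogenes with -ps names and Rpl17 were left out. The rule gave 85 genes, 51 with large subunit names and 34 with small subunit names, among 21474 protein-coding genes and 43346 Ensembl genes in each table. The rule reads symbols and not function, so it includes Rps19bp1, whose product binds the protein of Rps19 and is itself no ribosomal protein, and it leaves out Fau, which encodes a ribosomal protein fused to a ubiquitin-like protein. The members lay on 19 chromosomes in the mm10 build, with the most, 14, on chromosome 7.

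All embryos were FVB mice at embryonic day 11.5, and the groups differed in tissue and in which of 7 boundaries (B2 to B8) was missing. Homozygous embryos lacked a boundary after CRISPR/Cas9 deletion, wild-type embryos came from the same intercrosses of heterozygous mice, and each line lacked 1 boundary. B2, between Tbx5 and Lhx5, was sampled in heart (4 homozygous and 4 wild-type libraries) and lung (6 and 6, with 3 of each sex per genotype). The other lines had 2 homozygous and 2 wild-type libraries per tissue: face and heart for B3 and B5, gut and midbrain for B4, face for B6 and B7, and forebrain and neural tube for B8. B6 and B7 hearts had 2 homozygous libraries each and no wild-type hearts of their own line, so the comparison used the 8 wild-type hearts from the other lines (B2, B3, B5). In these comparisons line and genotype cannot be told apart. Whether replicates came from separate litters was not stated, so p-values measure the spread between these libraries.

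Each ribosome is built from a large and a small subunit, and nearly every ribosomal protein is present in a single copy per ribosome, so their genes are expressed at matched and high levels in growing tissue. Their mRNAs carry a 5′ terminal oligopyrimidine (TOP) motif, a C at the first base followed by a run of pyrimidines, through which the mTOR pathway and the binding protein LARP1 set their translation. The small subunit proteins sit on the decoding side of the ribosome, the large subunit holds the peptidyl transferase centre, and the acidic stalk of RPLP0, RPLP1 and RPLP2 recruits elongation factors. RPL5 and RPL11 bind MDM2 when ribosome assembly fails and so link the pathway to p53. Loss of single members has tissue-restricted phenotypes in mice: the Tail short mutation in Rpl38 alters the axial skeleton, and Belly spot and tail in Rpl24 alters pigmentation and the tail.

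Sequences around the annotated start of transcription were examined first, because this is where the TOP motif lies. RefSeq windows (build GRCm38.p6) matched 66 of the 85 members by symbol and gave 78 windows, since 10 members had more than 1 annotated start. Each sequence printed here runs from 20 bases before the annotated start to 30 bases after it, 5′ to 3′ on the gene's strand, 50 bases in all, and capitals mark every unbroken run of at least 8 C or T. The first set shows members with long pyrimidine runs, among them members of both subunits and the most abundant member, Rps26.
Rpl35: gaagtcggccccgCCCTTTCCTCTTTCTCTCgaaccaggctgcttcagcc
Rpl15: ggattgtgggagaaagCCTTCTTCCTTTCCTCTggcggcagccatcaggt
Rpl28: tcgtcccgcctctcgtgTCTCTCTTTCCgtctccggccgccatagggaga
Rpl38: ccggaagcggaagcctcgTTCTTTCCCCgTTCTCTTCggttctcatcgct
Rps6: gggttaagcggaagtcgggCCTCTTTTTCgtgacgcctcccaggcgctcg
Rps26: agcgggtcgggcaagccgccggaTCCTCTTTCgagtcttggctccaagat

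These windows lie at chr2:39005102-39005151 on the minus strand (Rpl35), chr14:18270957-18271006 minus (Rpl15), chr7:4792945-4792994 plus (Rpl28), chr11:114668560-114668609 plus (Rpl38), chr4:86857338-86857387 minus (Rps6) and chr10:128626477-128626526 minus (Rps26). The longest run was 18 bases in Rpl35 and 17 bases in Rpl15. The second set shows Rps27 beside its copy Rps27rt, which differ in level, and members on which the tissue results turn or whose windows held no such run.
Rps27: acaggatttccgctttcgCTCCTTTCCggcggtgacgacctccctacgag
Rps27rt: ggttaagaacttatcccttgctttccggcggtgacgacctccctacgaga
Rps28: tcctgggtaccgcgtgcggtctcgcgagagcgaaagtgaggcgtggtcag
Rps16: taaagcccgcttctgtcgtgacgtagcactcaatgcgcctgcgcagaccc
Rpl10l: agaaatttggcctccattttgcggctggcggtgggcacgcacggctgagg
Rpl7l1: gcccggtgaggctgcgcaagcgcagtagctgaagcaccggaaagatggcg

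Their positions are chr3:90213619-90213668 minus (Rps27), chr9:114982710-114982759 minus (Rps27rt), chr17:33824533-33824582 minus (Rps28), chr7:28350669-28350718 plus (Rps16), chr12:66284372-66284421 minus (Rpl10l) and chr17:46782627-46782676 minus (Rpl7l1). Rps27 and Rps27rt shared a stretch of 38 bases that began 1 base after the start of Rps27 and at the start of Rps27rt, so the pair is near-identical there and differs upstream. A run of at least 8 C or T on the sense strand stood in 44.9% of the members' windows (35 of 78) and in 18.95% of all windows of that length. The letters CTTTCC on the sense strand stood in 16.7% of the members' windows against 2.39% of all windows, and a C exactly at the annotated start followed by at least 4 C or T in 17.9% against 2.50%. Over the 250 bases before the start, the letters TTCCG or their complement CGGAA, which overlap the core that ETS family factors bind, were found in 70.5% of members' windows against 25.2% of all. CACGTG, which reads the same on both strands, stood in 8.97% of the members' windows against 6.02% of all, and TATAAA or TTTATA within 50 bases before the start in 1.28% against 3.50%. These matches describe letters in a window, and annotated starts can lie some bases away from the start used in a tissue.

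The libraries held between 8391600 and 31793000 estimated counts, with a median of 21394000. Most tissue markers were highest in the tissue that the labels name, among them En2 in midbrain and Hoxb9 in neural tube. Others were not. The neural tube markers Olig2 (median 0.94 TPM against 31.5 in forebrain) and Pax6 (14.8 against 106) stood higher elsewhere. So did the neural tube marker Nkx6-1, higher in midbrain, and the midbrain marker Pax2 (1.88 against 6.89 in neural tube). Among gut markers, Barx1 (89.63 against 137.94 in face) and Isl1 (13.22 against 30.645 in neural tube) were higher elsewhere. In lung Sox2, Nkx2-1 and Sftpc had medians of 2.45, 4.0 and 4.41 TPM, with Nkx2-1 and Sox2 higher in forebrain. The lung marker Foxf1 was higher in gut (60.925 TPM in lung against 73.215). The lung libraries stood apart as a set: in 10 of the 12, small noncoding RNA made up 6.27 to 7.56% of counts, replication histone mRNA 1.88 to 2.26% and mitochondrially encoded RNA 11.3 to 14%, whereas outside the lung small noncoding RNA did not pass 0.0837% and histone mRNA did not pass 0.0247%. Lung and this library composition cannot be told apart. The other 2 lung libraries were both wild type. Wild-type lung replicate 6 had the lowest total, 62.7% of its counts were on Gm42418 and 25% on Lars2, and only 0.459% were on the ribosomal protein genes. Wild-type lung replicate 5 had 21.6% of its counts on small noncoding RNA and 0.362% on mitochondrially encoded RNA. B5 homozygous heart replicate 1 held transcripts of both sexes (Xist at 21.2 TPM and 4 Y-linked genes together at 30.3 TPM) and 579 CPM over 8 neuronal markers, against 37.4 to 89.0 CPM in the other hearts. Sex as read from Xist and the Y-linked genes was uneven between genotypes in B3, B4 and B8. Results that rest on these libraries are given with and without them.

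Expression across genes is given in TPM, a unit of transcript abundance that divides by transcript length. Over the 52 libraries other than lung, 65 of the 85 members had a median above 1000 TPM, 14 lay between 100 and 1000 TPM and 6 lay below 100 TPM. Of the 100 genes with the highest median TPM of all 43346, 52 were members. The 5 most abundant members made up 15.7% of the TPM of all 85. The median over large subunit members was 1822 TPM and that over small subunit members 2201 TPM. TPM of short transcripts depends on the effective length that the authors' program assigned: Rps27, with a gene model of 255 bases, ranked 65th of the members by deposited TPM and 79th when counts were divided by annotated length.

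**Figure D1:**
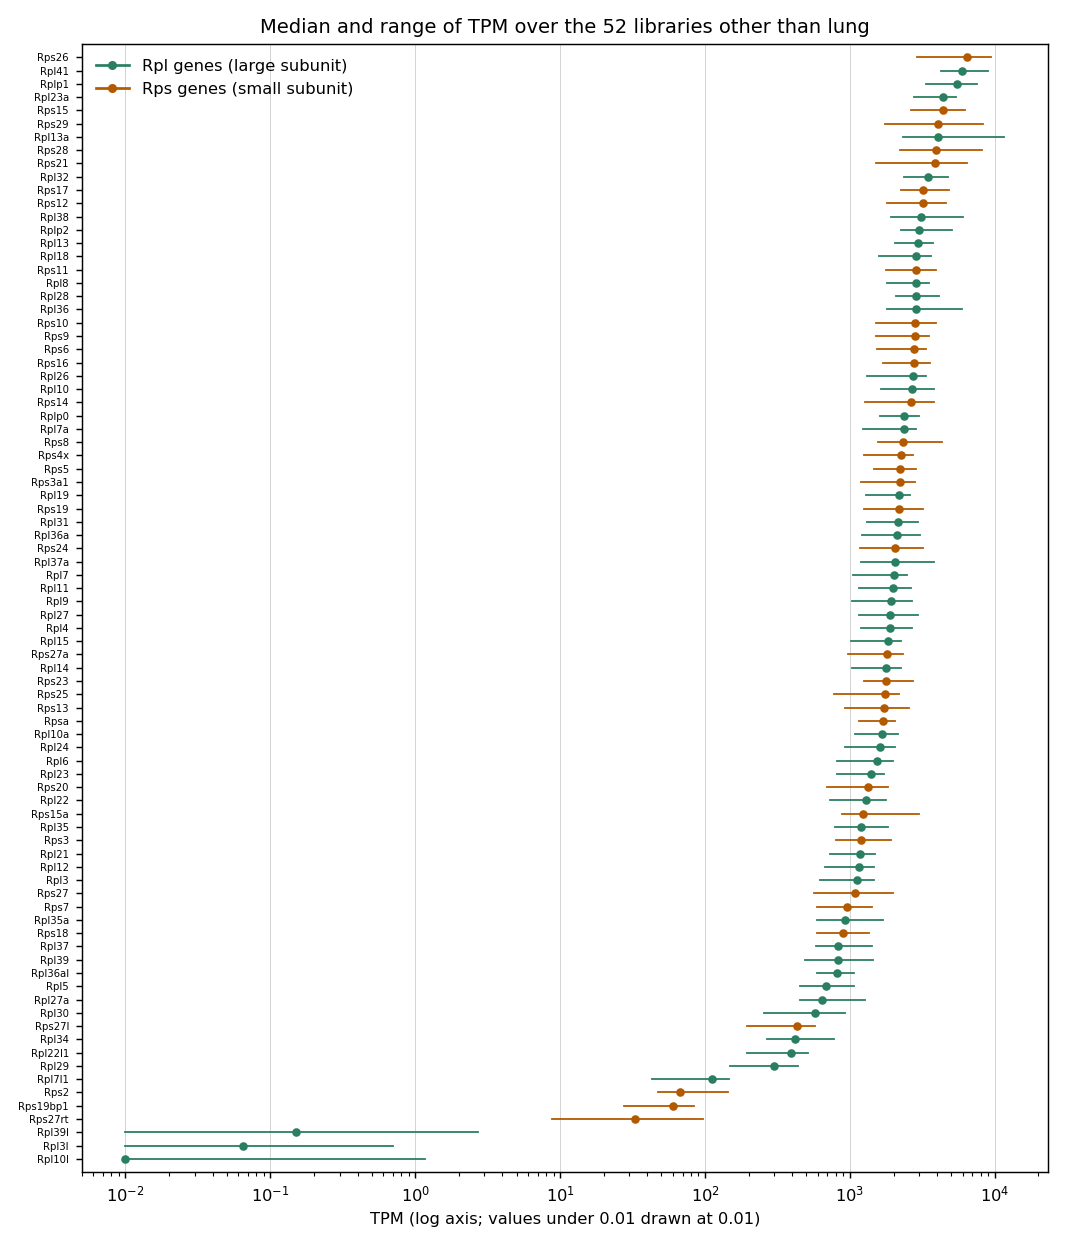
Median TPM (point) and the lowest and highest library (line) for 84 of the members over the 52 libraries other than lung, on a log axis, with values under 0.01 drawn at 0.01. Most members sit between 1000 and 6459 TPM, and a tail of paralogs reaches down to Rpl3l at 0.065 and Rpl10l at 0.

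Rps26, a small subunit protein at the mRNA exit channel, was the most abundant member, with a median of 6459 TPM and a range of 2903 to 9476 TPM over the 52 libraries. Rpl41, which encodes the shortest protein of the ribosome, followed with a median of 5951 TPM (4232 to 9002 TPM), and Rplp1, a stalk protein, with a median of 5519 TPM (3364 to 7579 TPM). Rpl23a, near the exit of the peptide tunnel, had a median of 4411 TPM and Rps15 one of 4389 TPM. The ranges of these 5 members overlapped one another, so their order is not separated by the spread between libraries.

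In deposited TPM the stalk was not balanced. Rplp1 exceeded Rplp0 (median 2377 TPM, 1616 to 3011 TPM) in every library outside the lung by range. The lowest Rplp1 value was above the highest Rplp0 value, whereas Rplp2 (3020 TPM, 2251 to 5050 TPM) overlapped both. This order rests on division by length, with 495 bases for Rplp1 and 1333 bases for Rplp0. In CPM, which is not divided by length, Rplp0 was the higher in B6 homozygous faces (2074 and 2495 against 1248 and 1415 CPM). In the ribosome RPLP1 and RPLP2 bind RPLP0 as dimers. Rpsa, a small subunit protein also known as a laminin receptor precursor, had a median of 1681 TPM (1148 to 2037 TPM).

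The pair that senses assembly stress differed in level. Rpl5 had a median of 685 TPM, with values from 450 to 1066 TPM, and Rpl11 a median of 1974 TPM, with values from 1150 to 2646 TPM. Their ranges did not overlap. Among members mutated in Diamond-Blackfan anaemia in humans, Rps19 had a median of 2183 TPM and Rps7 one of 962 TPM. Rps14, the gene of the human 5q- syndrome, had a median of 2646 TPM, and Rps6, the substrate of S6 kinase, a median of 2760 TPM (1540 to 3357 TPM). Rpl38 had a median of 3105 TPM, with hearts from 1926 to 4510 TPM and faces from 3634 to 6066 TPM, and Rpl24 one of 1604 TPM (928 to 2044 TPM). Rpl10a stood at 1654 TPM and Rps27a, a fusion with ubiquitin, at 1801 TPM.

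Paralogs separated widely. Rpl10l, a copy of the X-linked Rpl10 that is known for its role in the testis, had counts in 6 of 64 libraries, all of them gut or neural tube, where it reached 1.13 and 1.16 TPM. Rpl10 itself had a median of 2696 TPM. Rpl3l, the copy of Rpl3 known from adult heart and skeletal muscle, had counts in 29 libraries and never passed 0.70 TPM, whereas Rpl3 stood at 1120 TPM.

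In hearts Rpl3l ranged from 0 to 0.70 TPM with a median of 0.26 TPM, and in faces from 0 to 0.07 TPM, so the ranges met at the low end. Rpl39l had counts in 36 libraries and a median of 0.15 TPM, against 828.7 TPM for Rpl39. Rpl22l1 (394 TPM, 196 to 515 TPM) stayed below Rpl22 (1299 TPM, 733 to 1788 TPM) in all 52 libraries, and Rpl36al (809 TPM) below Rpl36a (2118 TPM) by its range of 597 to 1066 against 1218 to 3028 TPM. Rps27l, a p53 target, had a median of 429 TPM (196 to 572 TPM).

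Rps27rt, whose start window carries the 38 bases shared with Rps27, had a median of 32.9 TPM (8.84 to 97.6 TPM) against 1078 TPM (564 to 1980 TPM) for Rps27. The size of this gap depends on the effective length assigned to Rps27, whose gene model has 255 bases. In CPM, which is not divided by length, B6 homozygous faces had 7.38 and 7.44 for Rps27rt against 17.4 and 24.8 for Rps27. Rps4x, the X-linked small subunit member, had a median of 2242 TPM. Rps19bp1, the gene that is no ribosomal protein, lay at 59.8 TPM (27.8 to 83.9 TPM), far below the ribosomal proteins proper. Rpl7l1, a homologue of Rpl7 with a role in assembly, lay at 111 TPM against 2012 TPM for Rpl7.

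Levels of several members are uncertain because 248 pseudogenes are named after 55 of them and a read that fits both can be counted to either. Of the counts assigned to a gene or its named pseudogenes, the pseudogenes held 97.8% for Rps2, 64.9% for Rpl34, 43% for Rpl3, 31.4% for Rpl35a, 14.2% for Rpl30 and 8.30% for Rpl27. Rps2 appears at 67.7 TPM, the lowest of the members that are neither paralogs nor Rps19bp1.

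Across tissues the members varied less than the median of all genes on the same scale. The genes were not matched for level, and the tissue means also carry differences between lines. On log2 CPM (read counts scaled to a common library size) over all 64 libraries, the SD of the 7 tissue means had a median of 0.31 (log2) over 84 members and 0.58 over the 18339 genes on that scale, and with the lung left out these were 0.29 and 0.50. Rps4x, Rpl3, Rpl7, Rps6 and Rpl7a varied least, with SDs of 0.12, 0.15, 0.15, 0.15 and 0.16. Rps27rt (1.71), Rpl10l (1.54), Rps16 (1.28), Rpl29 (1.21) and Rpl3l (1.08) varied most. Rpl10l and Rpl3l had no counts in most libraries, so their SDs rest on values at the floor. Rpl3l did not pass the filter for that scale and is not among the 84 members. Without the lung the SDs of Rps16, Rpl29 and Rps27rt were 0.26, 0.23 and 0.87, so most of their spread came from the lung libraries.

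The members together took 5.68 to 7.88% of all counts in faces, 4.54 to 7.00% in hearts, 5.11 to 6.48% in gut, 4.62 to 6.17% in forebrain, 4.77 to 5.48% in neural tube and 4.00 to 4.49% in midbrain. Lungs had 4.13 to 4.88% apart from wild-type lung replicate 6 with 0.459%. The ranges of face and heart overlapped, as did those of midbrain and lung, so that neither end of this order is separated by the spread between libraries. As a share of TPM, midbrain at 14.3 to 15.6% lay within the hearts (11.1 to 17.5%) and below the faces (19.1 to 23.2%). In bulk tissue fewer cells of a type and less RNA per cell cannot be told apart, and a share of all counts moves when other abundant RNA moves.

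**Figure D2:**
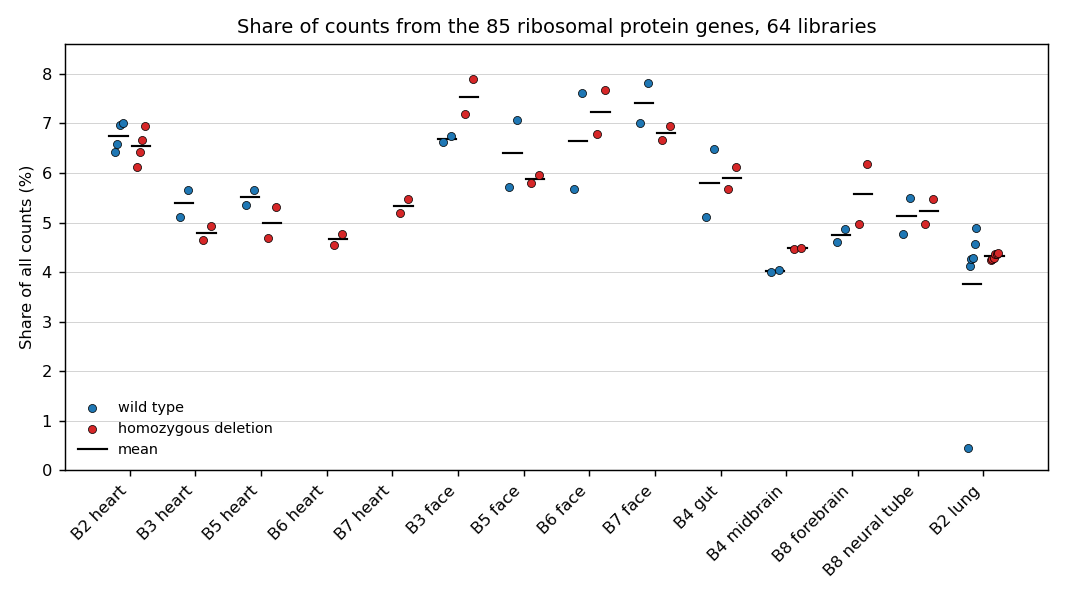
Share of all counts, in percent, on the 85 ribosomal protein genes in each of the 64 libraries, by line and tissue (points, blue for wild type and red for homozygous deletion, with the mean as a line). Faces and hearts reach 7.88 and 7.00%, midbrain stays at 4.00 to 4.49%, and 1 wild-type lung stands alone at 0.459%.

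Gut and midbrain were compared within line B4, with genotype as a block, to ask how the ribosomal protein programme differed between these tissues. In gut 75 of 82 members tested were higher and 0 lower at an adjusted p under 0.05 (edgeR quasi-likelihood test, Benjamini-Hochberg), where 35.9% of all genes tested were higher and 30.7% lower. DESeq2 called 74 members, and 66.7% of all genes. All 82 members had a fold change above 0, with a median of 0.45 (log2), and in 56 every gut lay above every midbrain, as did 32.6% of all genes. The largest changes were spread over both subunits.

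Rps24, a small subunit protein mutated in some Diamond-Blackfan anaemia families, had 451, 546, 486 and 376 CPM in the 4 guts and 279, 222, 253 and 249 CPM in the 4 midbrains. Every gut lay above every midbrain, a log2 fold change of 0.89 (SE 0.112, adjusted p = 6.98e-05). Rpl36al stood at 207, 219, 195 and 150 CPM in gut and 112, 99.2, 112 and 100 CPM in midbrain, also without overlap (0.87, SE 0.105, adjusted p = 5.27e-05). Rps12 (0.85, adjusted p = 0.000229), the stalk gene Rplp1 (0.78, 748 to 1019 CPM against 490 to 602 CPM) and Rpl12, at the base of the stalk (0.70, 673 to 781 CPM against 412 to 496 CPM), followed. Rpl22l1 was higher by 0.66 (adjusted p = 0.000574), whereas Rpl38 gave 0.32 with overlapping groups and an adjusted p of 0.13.

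Genes that build or serve ribosomes moved in the same direction in gut. Of 32 ribosome biogenesis factors 30 were higher and 0 lower, led by the nucleolar proteins Gnl3, Nop2 and Mrto4. RNA polymerase I genes gave 8 higher and 2 lower of 14, elongation factors and other TOP mRNAs 11 and 2 of 17, initiation factors 9 and 1 of 17, and mitochondrial ribosomal proteins 54 and 2 of 77. Fau (0.37) and Rack1 (0.48), the scaffold of the small subunit, were higher as well. All 10 erythroid and all 8 hepatocyte markers were higher in gut and all 8 neuronal markers lower. Hepatocyte markers summed to 4999 to 5203 CPM in wild-type and 5528 to 8077 CPM in homozygous guts, and to at most 21.6 CPM in midbrains. The part of these markers in the result was not tested.

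Face and heart were compared over lines B3, B5, B6 and B7 (12 libraries of each, homozygous alone for B6 and B7) with line and genotype as blocks. The members' median difference was small, 0.14 against 0.04 for all genes. In face 37 of 82 members were higher, a share close to the 41.4% of all genes, and 1 was lower against 37.7% of all genes. DESeq2 called 38 members higher and 2 lower, and 79.5% of all genes in either direction. The count was uneven over lines: alone, B3 gave 52 higher and 0 lower (35.3% and 33.9% of all genes) and B6 54 and 0 (32.2% and 31.5%). B5 alone gave 1 and 1 (20.2% and 26.1% of all genes) and B7 2 and 4 (29.4% and 29.9%).

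Rpl7l1 gave the largest difference. Its faces ranged from 156 to 209 CPM (median 186) and its hearts from 95.1 to 152 CPM (median 116), so that no face fell among the hearts, and the log2 fold change was 0.62 (SE 0.0699, adjusted p = 8.33e-08). Rps19bp1, the binding protein, was higher by 0.46 (adjusted p = 5.43e-06), with 23.4 to 35.5 CPM in faces and 17.5 to 25.2 CPM in hearts, which overlapped at their edges. The 2 largest differences therefore belonged to members that are not core ribosomal proteins. Among core proteins Rpl18 and Rpl7a were each higher by 0.32 and Rps10 by 0.28. Rpl7a ranged from 984 to 1322 CPM (median 1200) in faces and from 842 to 1068 CPM (median 952) in hearts.

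Rpl36al was lower in face, with a log2 fold change of -0.26 (adjusted p = 0.00459), and when libraries were scaled by their totals its value was 0.02, so its direction depends on the scaling. With that scaling 79 members were higher, where 55.4% of all genes were, and with mitochondrially encoded and globin genes left out of the totals 70 were, where 50.4% of all genes were. All 13 mitochondrially encoded genes and all 10 erythroid markers were lower in face. Leaving out single libraries moved the count from 25, without B3 wild-type heart replicate 2, to 53, without B5 wild-type face replicate 2, while 78.3% and 79.1% of all genes were called in these fits. Leaving out B5 homozygous heart replicate 1 gave 35 higher and 1 lower, with 79.5% of all genes called.

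Ribosome biogenesis factors were higher more uniformly than the ribosomal proteins in face, with 24 higher and 2 lower of 32 and a median of 0.35, led by Heatr1, Dkc1 and Npm1. RNA polymerase I genes gave 9 higher and 0 lower of 14. Mitochondrial ribosomal proteins went the other way, with 11 higher and 44 lower of 77. Fau (0.18) and Rack1 (0.19) were higher.

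Lung and heart were compared within B2, with genotype as a block, and here the 2 wild-type lungs that stand apart matter. In lung 6 members were higher and 60 lower of 82, against 41.7% of all genes higher and 38.8% lower, with a median of -0.50. Without the 2 lungs 11 were higher and 68 lower, against 44.7% and 43.4% of all genes, with a median of -0.54. Scaled by library totals without mitochondrially encoded and globin genes, 3 were higher and 31 lower, against 32.6% and 31.4% of all genes. The tissue and the composition of its libraries cannot be told apart, so these values describe the 2 sets of libraries.

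Rps16, on the small subunit head near the decoding centre, ranged from 32.1 to 109 CPM (median 55.6) in the 12 lungs and from 836 to 967 CPM (median 917) in the 8 hearts, a log2 fold change of -3.92 (SE 0.201). Rpl29 ranged from 5.94 to 14.7 CPM in lungs and from 96.5 to 141 CPM in hearts (-3.79, SE 0.121). Neither gene overlapped between the tissues. In TPM Rps16 had a median of 89.1 in lung and 2362 in heart, while in the other 5 tissues it lay between 2318 and 3597, so that the low level was in the lung libraries. Rps26 (-1.76) and Rpl28 (-1.58) followed, each below every heart in all 12 lungs.

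Rps27rt was the member with the largest rise. Lungs ranged from 10.1 to 33.8 CPM (median 30.3) and hearts from 0.917 to 2.04 CPM (median 1.65), without overlap, and the log2 fold change was 4.08 (SE 0.225). Rps27 rose by 1.72, from a heart median of 17.5 CPM to a lung median of 60.1 CPM, although wild-type lung replicate 5 at 16.9 CPM lay among the hearts. Reads in the stretch that both genes share cannot be assigned with certainty. Rps2 (1.26) and Rpl34 (0.53) were higher as deposited, but with their pseudogenes added they gave -0.97 and -0.20, so no direction is given for them. Rpl27a was higher by 0.22 (adjusted p = 0.00638).

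Other translation genes were lower in lung too. Elongation factors and other TOP mRNAs gave 1 higher and 13 lower of 17, mitochondrial ribosomal proteins 0 higher and 75 lower of 77 with a median of -1.07, and Fau gave -0.83, whereas Rack1 gave -0.12 and did not pass the test. Ribosome biogenesis factors were divided, with 10 higher and 16 lower of 32.

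**Figure D3:**
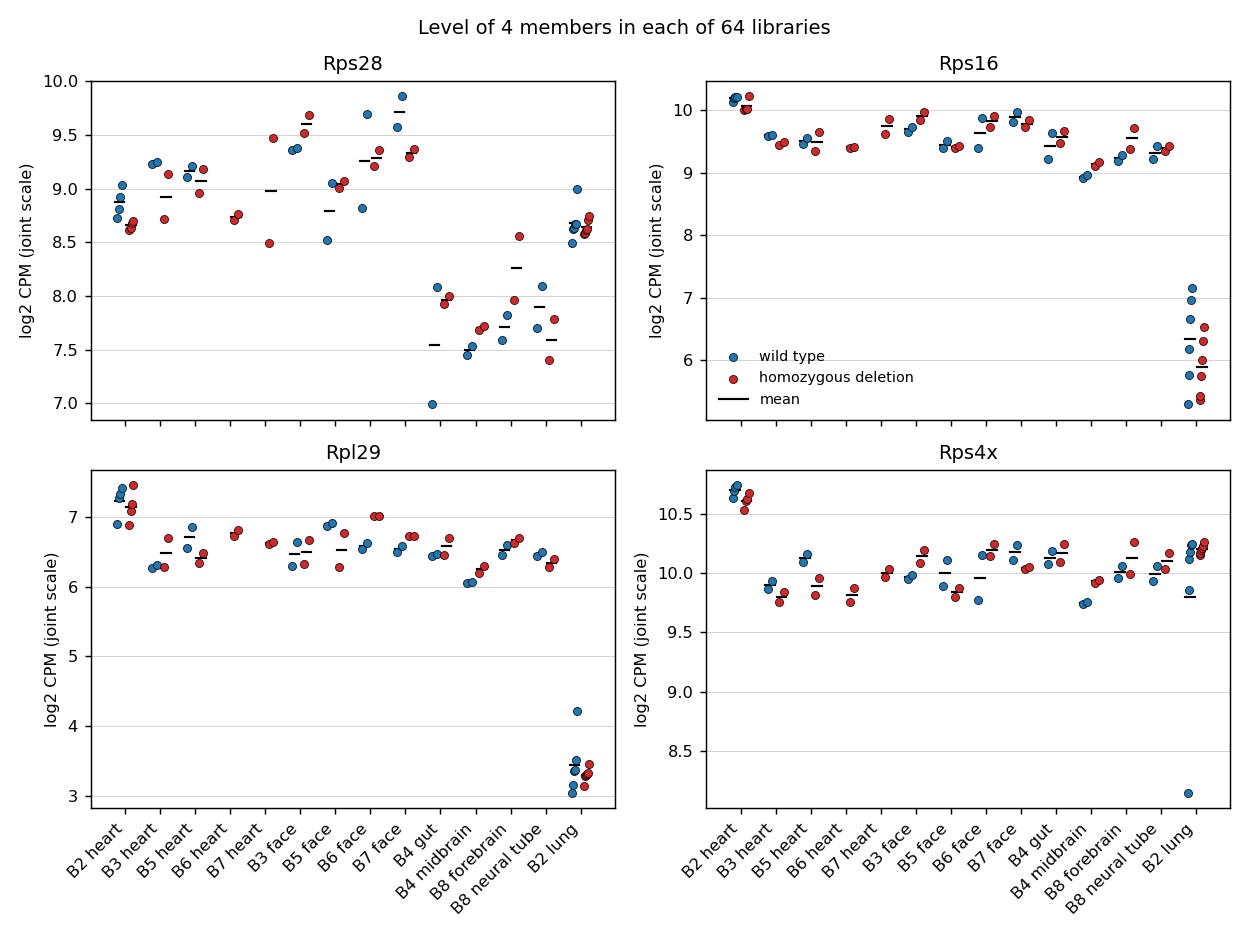
Level of Rps28, Rps16, Rpl29 and Rps4x in each of the 64 libraries on a log2 CPM axis scaled over all libraries, by line and tissue (blue for wild type, red for homozygous deletion, line at the mean). Rps16 and Rpl29 are low in every lung library, whereas Rps4x, with an SD of 0.12 over the tissue means, is nearly level, apart from 1 wild-type lung.

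Forebrain and neural tube of line B8 were closest. No member was called by edgeR or DESeq2, where 16.7% of all genes were higher in forebrain and 19.5% lower, and 5 of 82 members reached an unadjusted p under 0.05 against 45.1% of all genes. The members' median was 0.02. Rpl7l1 had the smallest p, with 234, 198, 231 and 205 CPM in forebrain and 226, 177, 186 and 180 CPM in neural tube (0.17, SE 0.0732, adjusted p = 0.0907), and the groups overlapped.

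Rps28, a short small subunit mRNA, was among the members whose TPM differed between tissues. It had 5986 to 8118 TPM (median 7078) in faces, 2817 to 6102 TPM (median 3718) in hearts, 2203 to 3220 TPM in gut, 2621 to 2962 TPM in midbrain, 2828 to 4333 TPM in forebrain and 2846 to 3466 TPM in neural tube. Faces lay above the ranges of the other 4 tissues and overlapped the hearts at the edge. In CPM, which is what the test read, Rps28 gave 0.23 between face and heart (adjusted p = 0.0662), and the groups overlapped. Rplp1 showed a like order in TPM, with faces at 5941 to 7579, hearts at 4390 to 6802 and midbrain at 3364 to 3918. There faces and midbrain did not overlap and faces and hearts did. Faces came from B3, B5, B6 and B7, gut and midbrain from B4, and forebrain and neural tube from B8. Between faces and the tissues of B4 or B8, line and tissue cannot be told apart. Both genes are among the 20 shortest members, whose relative level differed between these sets of lines, as described below.

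The question of the study, whether losing a boundary alters expression, was put to the members in 14 comparisons of homozygous with wild-type libraries. In these 1149 tests 0 members had an adjusted p under 0.05 by edgeR. The members nevertheless moved together in several comparisons, up in some and down in others. Because all members share a library, a shift of the set is a property of 2 to 6 libraries per group and not of 82 separate genes.

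**Figure D4:**
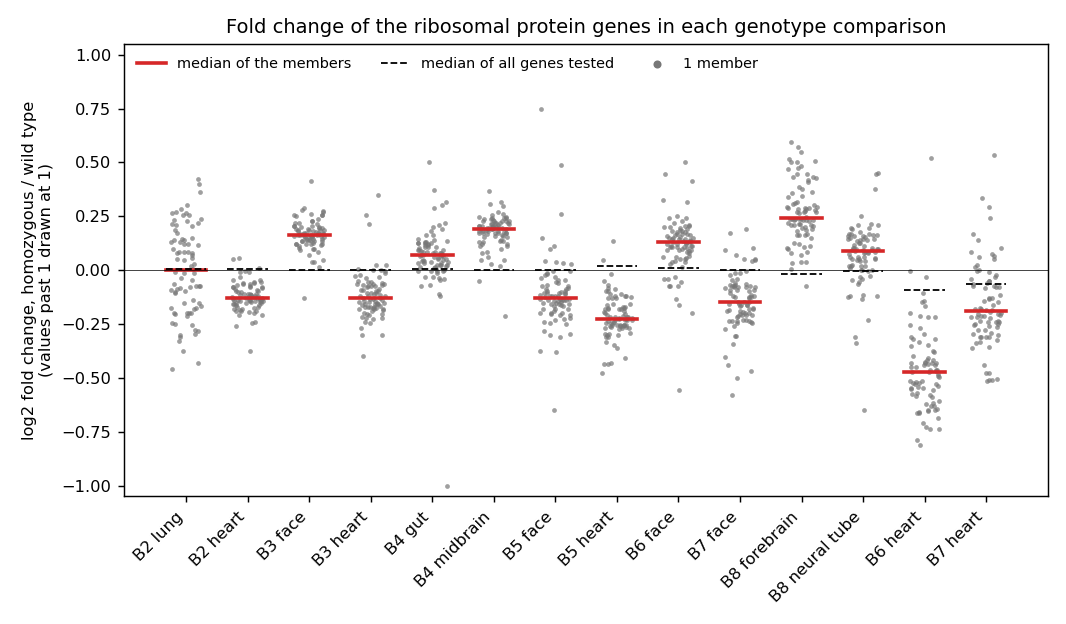
Log2 fold change, homozygous over wild type, of each member (grey points, values past 1 drawn at 1) in the 14 genotype comparisons, with the members' median in red and the median of all genes tested as a dashed line. The medians run from -0.47 in B6 heart to 0.24 in B8 forebrain, and no member passed the adjusted threshold in any comparison.

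In B2 lung the members' median was -0.00, with 41 members above 0 and 41 below. Of all genes 0% were called, and 3.19% reached an unadjusted p under 0.05, against 0 members in both counts, and DESeq2 called 0 members. Groups without overlap made up 0.259% of all genes and 0 members. Rps27rt had the smallest p, with 28 to 31.1 CPM (median 29.3) in homozygous lungs and 8.51 to 28.2 CPM (median 26.9) in wild-type lungs, a log2 fold change of 0.40 (SE 0.244, adjusted p = 0.89). The low wild-type values were those of the 2 lungs that stand apart, and without them its fold change was 0.11 and the members' median 0.02.

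In B2 heart 79 of 82 members lay below 0, with a median of -0.13, while 0% of all genes were called. At an unadjusted p under 0.05 there were 16 members against 4.85% of all genes, and DESeq2 called 0. In 20 members every homozygous heart lay below every wild-type heart, which 1.95% of all genes did. Rplp1 had the smallest p, with 1156, 1125, 1259 and 1135 CPM in homozygous hearts and 1258, 1400, 1284 and 1655 CPM in wild-type hearts (-0.26, SE 0.0908, adjusted p = 0.867), and the groups met between 1258 and 1259 CPM. Erythroid markers, 10 of 10 detected, summed to 23464 to 54118 CPM in homozygous and 33849 to 62018 CPM in wild-type hearts, and B2 homozygous heart replicate 4 carried 1353 CPM of hepatocyte markers against at most 149 CPM in the other B2 hearts. Their part in the shift was not tested.

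In B3 face 81 of 82 members lay above 0, with a median of 0.16. At the adjusted threshold 0.0131% of all genes were called and 0 members by edgeR and 0 by DESeq2, while 41 members reached an unadjusted p under 0.05 against 9.49% of all genes. In 71 members both homozygous faces lay above both wild-type faces, a position that 21.8% of all genes held. Rpl39, a large subunit protein at the tunnel exit, had 423 and 425 CPM in homozygous and 357 and 345 CPM in wild-type faces (0.27, SE 0.0614, adjusted p = 0.503). Rack1 gave 0.22. Neuronal markers, 8 of 8 detected, summed to 801 to 815 CPM in homozygous and 615 to 726 CPM in wild-type faces, and erythroid markers to 6308 to 6791 against 4664 to 6238 CPM. Their part in the shift was not tested.

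In B3 heart, from the same line, the direction was the other way. There 75 of 82 members lay below 0 with a median of -0.13, 47 members had both homozygous hearts below both wild-type hearts against 21.6% of all genes, and 1 member reached an unadjusted p under 0.05 against 9.47%. Of all genes 0% were called, and DESeq2 called 0 members. Rpl38 had 296 and 314 CPM in homozygous and 386 and 367 CPM in wild-type hearts, without overlap (-0.30, SE 0.116, adjusted p = 0.524). Cardiomyocyte markers summed to 26098 to 28138 CPM in homozygous and 13843 to 21635 CPM in wild-type hearts, and neuronal markers to 37.4 to 40.9 against 48.8 to 89.0 CPM. Mitochondrially encoded RNA was 3.12 to 3.18% of counts in homozygous and 1.74 to 1.98% in wild-type hearts. None of these overlapped between genotypes, and their part in the shift was not tested.

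The difference between face and heart was tested as an interaction of genotype and tissue in B3. No member was called, against 0.0311% of all genes, but 26 members reached an unadjusted p under 0.05 against 9.12%. Rpl38 gave the smallest p, an interaction of 0.49 on the log2 scale (edgeR adjusted p = 0.524). In both tissues the wild-type embryos were female and homozygous replicate 2 was male. With sex as a term, added after seeing the data, the members' median was 0.20 in B3 face and -0.19 in B3 heart and 0 members were called in either.

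In B4 gut the median was 0.07, with 1 member at an unadjusted p under 0.05 against 6.9% of all genes, 3 members with both homozygous guts above both wild-type guts against 16.8%, 0% of all genes called, and 0 members by DESeq2. The member with the smallest p was Rpl39l, at 0.147 and 0 CPM in homozygous and 0.541 and 0.967 CPM in wild-type guts, a handful of counts per library, so no fold is given.

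In B4 midbrain 80 of 82 members lay above 0, with a median of 0.19. Adjusted calls were 0.00677% of all genes and 0 members, by edgeR and by DESeq2, and 38 members reached an unadjusted p under 0.05 against 7.25%. In 70 members both homozygous midbrains lay above both wild-type midbrains, against 20.6% of all genes. Rps25, a small subunit protein used by viral internal ribosome entry sites, had 468 and 498 CPM in homozygous and 378 and 397 CPM in wild-type midbrains (0.32, SE 0.0788, adjusted p = 0.668). Rack1 gave 0.27. The 8 neuronal markers summed to 2307 to 2672 CPM in homozygous and 3116 to 3130 CPM in wild-type midbrains and did not overlap, while erythroid markers overlapped (4365 to 4682 against 2506 to 4571 CPM). Their part in the shift was not tested. The B4 interaction gave 0 members called and 0 at an unadjusted p under 0.05, where the shares of all genes were 0% and 4.4%. In B4 the wild-type embryos and homozygous replicate 2 read as male and homozygous replicate 1 as female, and with sex as a term the median was 0.21 in midbrain and 0.11 in gut, with 0 members called.

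In B5 face the median was -0.13, with 5 members at an unadjusted p under 0.05 against 3.21% of all genes, 17 members with both homozygous faces below both wild-type faces against 16.1%, and 0% of all genes called. DESeq2 called 0 members. Rps27 had the smallest p and went up, with 23.8 and 20.2 CPM in homozygous and 15.1 and 11.2 CPM in wild-type faces (0.75, SE 0.191, adjusted p = 0.999). This comparison rested on single libraries: without wild-type replicate 2, 60 members were lower, where 2.16% of all genes were, and without wild-type replicate 1, 3 were higher, where 0.195% of all genes were. Erythroid markers summed to 4780 to 5856 CPM in homozygous and 6008 to 7755 CPM in wild-type faces, and their part was not tested.

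In B5 heart 80 of 82 members lay below 0 with a median of -0.22, and 54 had both homozygous hearts below both wild-type hearts against 10.4% of all genes, while 1 member reached an unadjusted p under 0.05 against 0.748% and 0% of all genes were called. DESeq2 called 0 members. Rpl22l1 had 65.9 and 64.4 CPM in homozygous and 94.3 and 82.1 CPM in wild-type hearts (-0.44, SE 0.162, adjusted p = 1). Without the homozygous heart that held transcripts of both sexes and of neurons, 0 members were called, the median was -0.16 and Rpl22l1 gave -0.45. The B5 interaction called 0 members and 0% of all genes, and at an unadjusted p under 0.05 there were 0 members against 1.33% of all genes. Without that heart it also called 0 members.

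In B6 face the median was 0.13, with 2 members at an unadjusted p under 0.05 against 8.65% of all genes and 7 members above without overlap against 19.8%. By edgeR 0 members and 0.0723% of all genes were called, and by DESeq2 1 member and 1.06% of all genes. Rpl30, a large subunit protein that also takes part in selenocysteine insertion, had 263 and 263 CPM in homozygous and 192 and 179 CPM in wild-type faces, without overlap (0.50, SE 0.113, adjusted p = 0.28). Its pseudogenes held 14.2% of the counts of the set. Mitochondrially encoded RNA was 0.48 to 0.66% of counts in homozygous and 1.06 to 1.17% in wild-type faces, with 3 of 13 such genes called lower. Neuronal markers summed to 745 to 790 CPM in homozygous and 606 to 682 CPM in wild-type faces. Cardiomyocyte markers summed to 46.9 to 50.5 against 82.9 to 108 CPM, and hepatocyte markers to 6.88 to 9.02 against 4.37 to 5.85 CPM. None of these overlapped, while erythroid markers did (7312 to 8047 against 7999 to 10130 CPM). Their part in the shift was not tested.

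In B7 face the median was -0.15, with 12 members at an unadjusted p under 0.05 against 7.55% of all genes and 39 members below without overlap against 19%. By edgeR 0 members and 0.0329% of all genes were called, and DESeq2 called 3 members, all lower, and 0.586% of all genes. Rps29, a zinc-binding small subunit protein, had 773 and 703 CPM in homozygous and 1144 and 942 CPM in wild-type faces (-0.50, SE 0.114, adjusted p = 0.373). Neuronal markers summed to 799 to 952 CPM in homozygous and 697 to 722 CPM in wild-type faces, and mitochondrially encoded RNA was 0.786 to 0.837% against 1.09 to 1.15% of counts. Neither overlapped, and their part in the shift was not tested.

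In B8 forebrain 81 of 82 members lay above 0, with the highest median of the 14 comparisons, 0.24. The genotype labels of these libraries could not be checked on the deletion itself here, and those of the other comparisons were not checked either. The direction is therefore uncertain and rests on the labels alone, as it does in the interaction of line B8 and in the other genotype comparisons. At an unadjusted p under 0.05 there were 22 members against 5.57% of all genes, 57 members lay above without overlap against 17.7%, and 0% of all genes were called. DESeq2 called 0 members. Rplp1 had 821 and 976 CPM in the forebrains labelled homozygous and 597 and 667 CPM in those labelled wild type, without overlap (0.51, SE 0.131, adjusted p = 0.826). Rack1 gave 0.30. The 8 neuronal markers summed to 803 to 1542 CPM in forebrains labelled homozygous and 1450 to 1796 CPM in those labelled wild type, and cardiomyocyte markers to 2.04 to 11.1 against 11.1 to 12.5 CPM. Both forebrains labelled homozygous read as female and wild-type replicate 2 as male, and with sex as a term the median was 0.29 with 0 members called. The part of the markers in the shift was not tested. Without the library labelled homozygous replicate 1, 59 members were called higher, where 3.44% of all genes were, and without any other library none.

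In B8 neural tube the median was 0.09, with 1 member at an unadjusted p under 0.05 against 10.0% of all genes, 4 members above without overlap against 21.3%, and 0 members and 0.0132% of all genes called, with 0 members by DESeq2. Rps18 had 251 and 167 CPM in homozygous and 133 and 172 CPM in wild-type neural tubes, which overlapped (0.45, SE 0.19, adjusted p = 0.489). Homozygous neural tube replicate 2 stood apart in composition, with 4.23% of its counts on Gm42418 against 0.0344 to 0.0533% in the other 3. Without it 3 members were higher and 2 lower, where 6.48% of all genes were called, and the median was 0.14. Neuronal markers summed to 1266 to 1347 CPM in homozygous and 1408 to 1543 CPM in wild-type neural tubes, and their part was not tested.

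The B8 interaction called 0 members and 0% of all genes. There 5 members reached an unadjusted p under 0.05 against 3.39%, and Rps28 gave the smallest p, with an interaction of 0.88 on the log2 scale.

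B6 hearts gave the lowest median of the 14 comparisons, -0.47, with 81 of 82 members below 0, when set against 8 wild-type hearts of other lines. The median of all genes in that comparison was -0.09. At an unadjusted p under 0.05 there were 33 members against 16.8% of all genes, and in 57 members both B6 hearts lay below all 8 wild-type hearts against 9.17%. By edgeR 0 members and 0% of all genes were called, and by DESeq2 6 members, all lower, and 4.35% of all genes.

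Rps23, a small subunit protein of the decoding centre, had 517 and 518 CPM in B6 homozygous hearts, while the 8 wild-type hearts ran from 700 to 934 CPM (median 790), without overlap (-0.64, SE 0.173, adjusted p = 0.182). The wild-type hearts differed among themselves by line: the members' median log2 CPM was 9.65 to 9.84 in B2, 9.32 to 9.36 in B3 and 9.45 to 9.46 in B5, against 9.11 to 9.15 in B6 homozygous hearts. Against B2 hearts alone 70 members were lower and 1 higher, where 27.8% of all genes were lower. Against B5 hearts alone 16 were lower, where 5.73% of all genes were, and against B3 hearts alone 0 members and 0% of all genes were. Rack1 gave -0.54 and the biogenesis factors a median of -0.36.

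B7 hearts gave a median of -0.19 against -0.07 for all genes, with 0 members at an unadjusted p under 0.05 against 9.57%, 1 member below without overlap against 5.58%, and 0% of all genes called. DESeq2 called 0 members. Rpl34 had 99.4 and 109 CPM in B7 hearts and 71.9 to 92.8 CPM (median 88.2) in the wild-type hearts, without overlap (0.29, SE 0.134, adjusted p = 0.506), with the doubt over its pseudogenes. The B2 interaction called 0 members and 0% of all genes, with 1 member, Rpl36al, at an unadjusted p under 0.05 against 3.02%, and 0 were called without the 2 lungs that stand apart.

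The members did not shift evenly within a library. When each member's log2 CPM was centred over the libraries, its deviation followed the length of its mRNA in opposite directions in different lines. In the 28 libraries of B3, B5, B6 and B7 the Spearman correlation of deviation with length over 84 members ran from -0.54 to -0.07, so that short members were relatively high. In the 16 libraries of B4 and B8 it ran from 0.22 to 0.60, so that short members were relatively low, and in the 20 libraries of B2 from -0.08 to 0.18.

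The median deviation of the 20 shortest members minus that of the 20 longest was 0.04 to 0.44 (log2) in the first set. It was -0.68 to -0.14 in the second set and -0.26 to 0.15 in B2. B4 and B8 hold gut, midbrain, forebrain and neural tube and the first set holds face and heart, so line and tissue cannot be told apart here. Library composition cannot be told apart from them either. Small noncoding RNA was 0.0210 to 0.0837% of counts in the first set and 0.00152 to 0.0124% in the second. Within 1 tissue, B2 hearts and the other hearts differ: B2 hearts had -0.18 to 0.06 and B3 hearts 0.20 to 0.39. These correlations run over genes of 1 library, which are not independent replicates, and they are given as a description.

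**Figure D5:**
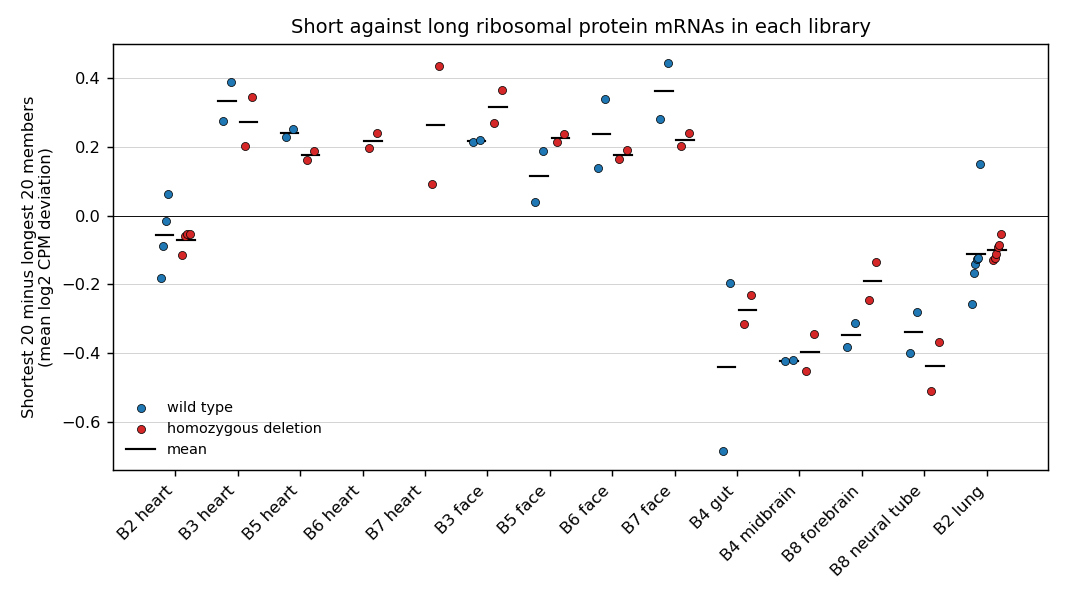
Median log2 CPM deviation of the 20 shortest members minus that of the 20 longest in each of the 64 libraries, by line and tissue. The axis label reads mean, but the points are differences of medians. Points are blue for wild type and red for homozygous deletion, with a line at the mean of each group. Lines B3, B5, B6 and B7 lie above 0 in all 28 libraries and lines B4 and B8 below 0 in all 16, in both genotypes.

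Other genes followed the members closely over the 64 libraries. By Spearman correlation with the members' median log2 CPM, genes most like it included Fau (0.94), Cstb (0.93), Txn1 (0.92) and Hsd17b10 (0.92). Fau encodes a ribosomal protein that the symbol rule leaves out, Cstb encodes a cysteine protease inhibitor, Txn1 thioredoxin and Hsd17b10 a mitochondrial dehydrogenase that is also a subunit of mitochondrial RNase P. The members' own correlations had a median of 0.81, highest for Rpl24 (0.97), and Rpl7l1 (-0.15), Rps27rt (0.10) and Rps27 (0.22) were among the least alike. With the lung left out Rps27 gave 0.70, Rps27rt 0.49, Rpl7l1 -0.11 and Rpl24 0.98, so that Rps27 and Rps27rt were more like the members without the lung libraries. The libraries share depth, line and tissue, so these values describe likeness over 26 groups.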

How the data were processed

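RNA-seq of 64 embryonic tissue libraries was analysed, and the Hi-C samples were not used here. Per the labels and the study's methods, total RNA was taken with Qiagen RNeasy Mini, libraries were made and sequenced by Novogene (NovaSeq, paired reads), reads were aligned with STAR to mm10 and genes of GENCODE M4 were quantified with RSEM. The library kit and its strand are not given in the sources used here, so reads of overlapping antisense genes cannot be told apart. The authors deposited expected counts and TPM per gene for each library, and RSEM divides reads that fit several genes between them by an estimate. TPM was used to compare genes and counts to compare libraries.

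Expected counts were rounded to whole numbers. Genes were filtered with filterByExpr, scaled by TMM and tested over all genes with edgeR 4.0.16 (quasi-likelihood test, R 4.3.3) with Benjamini-Hochberg adjustment at 0.05. Of the 85 members, 82 passed the filter in each comparison apart from B4 gut and the B4 interaction, with 83 in each. The genotype comparisons used the libraries of 1 line and tissue, tissue comparisons had line and genotype as blocks, and the 5 interactions used both tissues of a line. DESeq2 1.42.0, other scalings and filters, pseudogenes added, and each library left out were the alternatives, and fits with sex as a term and interactions without doubtful libraries were added after seeing the data. CPM values in the text carry TMM scaling within their comparison. No group held libraries that agreed within sampling noise.

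The members and gene lists were chosen with earlier results of these data known. The genes named were fixed by rule: paralogs, members with known roles, the 5 highest and 5 lowest by TPM and by spread over tissues, up to 5 called members in each direction per comparison or else the smallest p, the 5 genes most like the members, and related genes, of which some results are not reported here. The script for the tests was tested on simulated counts. Gene positions and biotypes came from GENCODE M21, and start windows from RefSeq.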

Additional observations from a re-analysis of the deposited data

Results flagged for a closer look

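Of 16 groups and measures examined for a library far from its group, 1 stood out, while chance alone gives about 1 in 20 groups. Only the B2 groups, with 4 or 6 libraries each, could be examined. Groups of 2 are too small for the rule, so libraries of the other lines were not screened. The share of counts on the ribosomal protein genes in wild-type lung replicate 6 was 0.4587%, against 4.13 to 4.88% in the other 5 wild-type lungs, and the gap filled 0.829 of the group's range. This library had 8391600 counts, the lowest of the 64, with 62.7% on Gm42418 and 25% on Lars2.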

How the results depend on the processing

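No paired analysis was possible because the labels give no replicate numbers that tie libraries across groups. In B2 lung, where embryo codes recur across genotypes, the code as a block gave 0 members called and a median of 0.02. Among the genotype comparisons, with 0 members called in each, DESeq2 called 1 in B6 face, 3 in B7 face and 6 in B6 heart. The shares of all genes there were 1.06%, 0.586% and 4.35%. Testing without a filter on low counts called 12 in B3 face (where 1.96% of all genes were called) and 2 in B6 face (2.93%). It called 4 in B7 face (2.07%) and 2 in B8 neural tube (3.13%). In one joint fit of all libraries 29 members were called in B6 heart and 1 in B7 heart (20.5% and 16.2% of all genes). Against wild-type hearts of B2 alone these counts were 71 and 58 (58% and 57.5% of all genes), and against those of B5 alone 16 and 1 (14.7% and 5.44%). In face against heart, where 38 members were called, scaling by library totals called 79 (82.4% of all genes). The same without mitochondrially encoded and globin genes called 70 (81.3%), B5 alone 2 (46.3%) and B7 alone 6 (59.2%). In lung against heart, where 66 were called, totals without those genes called 34 (64% of all genes). Forebrain against neural tube gave 1 without the filter, with 26.5% of all genes called. The cause of these shifts was not tested.

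Leaving out 1 library at a time (141 fits, in which a lone library is assumed to vary like the others) moved the number of members called from 0 to 8 in B4 gut (8 without wild-type replicate 1, with 1.02% of all genes), 0 to 1 in B4 midbrain, 0 to 60 in B5 face (60 without wild-type replicate 2, 3 without wild-type replicate 1), 0 to 1 in B6 face, 0 to 4 in B7 face (3 without homozygous replicate 1, 4 without homozygous replicate 2), 0 to 59 in B8 forebrain (59 without homozygous replicate 1), 0 to 5 in B8 neural tube (5 without homozygous replicate 2), 25 to 53 in face against heart, 0 to 1 in forebrain against neural tube, 69 to 81 in gut against midbrain and 66 to 75 in lung against heart. In the other genotype comparisons, and in the B5 interaction without B5 homozygous heart replicate 1, it stayed at 0.

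Of the named members 3 turned direction: Rpl36al in face against heart to 0.01546 with library totals, and Rps2 and Rpl34 in lung against heart to -0.9743 and -0.2032 with pseudogenes added. The members' median changed sign in 11 of 22 alternatives in B2 lung, 2 of 14 in forebrain against neural tube, and 1 each in B4 gut, B5 face, B6 face, B8 neural tube, B7 heart and face against heart. With 2 libraries per group, differences of the size seen in most genotype comparisons cannot be separated from the spread between libraries.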
